A study of Mus with 16 samples.

Results

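Otol1, Tnxb, Cilp2 and Cpxm1 are 4 genes for secreted proteins of the extracellular matrix, and this report follows them through the forebrain of young mice that lack one or every working copy of Kdm5c. They are 4 of the 54219 genes in the count table and were chosen because their mRNA was already known to be higher in both Kdm5c mutants of this study. Their rise in the mutants is therefore given as a description without a test. Bulk mRNA-seq was run on the forebrain, that is hippocampus and cortex together, of 16 mice at postnatal day 6 on a mixed C57BL/6J and 129S1/SvImJ background. The 4 groups were wild-type (WT) males, WT females, Kdm5c-KO males, which carry a deletion of Kdm5c on their single X chromosome, and Kdm5c-HET females, which carry the same deletion on one of 2 X chromosomes. Each group had 4 mice, and every mouse was sequenced as a separate library. The deleted allele was made with Cre and is constitutive, and the cells of all types in the dissected tissue are read together.

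The extracellular matrix is the meshwork of secreted proteins between cells. Otol1 encodes otolin-1, a collagen-like protein with a C1q domain that is best known from the otoconia of the inner ear. Tnxb encodes tenascin-X, a large glycoprotein that organises collagen fibrils in connective tissue. Cilp2 encodes a relative of the cartilage intermediate layer protein, and Cpxm1 encodes a secreted member of the carboxypeptidase family that is thought to lack enzymatic activity. Neural tissue holds little fibrillar matrix, and much of the collagen-rich matrix in and around the brain is made by cells of the meninges and vessels. KDM5C removes methyl groups from lysine 4 of histone H3, a mark of active promoters and enhancers, and its gene escapes X inactivation.

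Library totals ran from 21513783 to 30063352 counts. Of the 54219 genes, 35337 had a count in any animal and 17866 passed the filter on low counts, all 4 matrix genes among them. Otol1 failed this filter when only the females were fitted. Its place among the genes tested and called in Kdm5c-HET females therefore depends on the Kdm5c-KO males, where it is highest. Levels are given as CPM, counts relative to the effective size of each library, which are not corrected for transcript length, so levels are compared between animals and not between genes. In Kdm5c-KO males, 635 of 17866 genes were called higher than in WT males (3.55%) and 302 lower (1.69%) by edgeR's quasi-likelihood test at an adjusted p under 0.1. In Kdm5c-HET females, 86 genes were called higher than in WT females (0.481%) and 5 lower (0.0280%). The choroid plexus gene Ttr passed 1000 counts in 6 animals, namely 2 WT males, 2 WT females and 2 Kdm5c-HET females, and in no Kdm5c-KO male. The level of Kdm5c itself was not analysed here.

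All 4 matrix genes were among the genes called higher in both mutants, the property by which they were chosen, and for each of them every mutant animal lay above every WT animal of its sex. The share of all tested genes whose groups lie apart in this way is not given here. Since the genes were chosen as higher, nothing is read from this separation. Tnxb was the 15th of the 635 genes called higher in Kdm5c-KO males when ordered by fold change, Cilp2 the 149th and Cpxm1 the 481st. Among the 86 genes called higher in Kdm5c-HET females they ranked 22nd, 60th and 81st. Otol1 is left out of this order because its fold change rests on a single WT count per sex. Cpxm1 was the member nearest to the limit of the selection, and its adjusted p in the females passed 0.1 in 7 of 16 fits that each left out 1 animal.

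**Figure D1:**
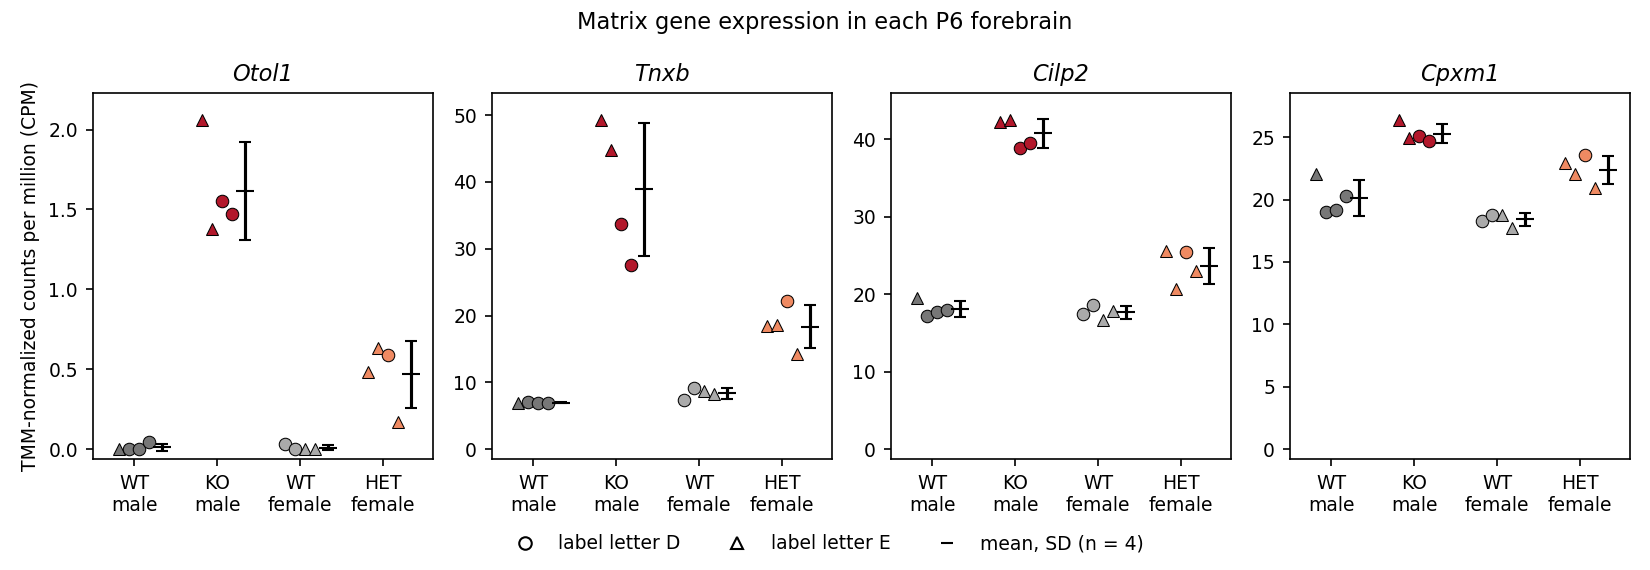
Level of each gene in every animal, in CPM on a linear axis that includes 0, by group (WT males, Kdm5c-KO males, WT females, Kdm5c-HET females). Circles are animals of label letter D, triangles those of letter E, and bars are the mean with the SD of 4 animals. For all 4 genes the mutant animals lie above the WT animals of the same sex, and every Kdm5c-KO male lies above every Kdm5c-HET female.

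Otol1 (ENSMUSG00000027788, chromosome 3, positions 70007613 to 70028708 in GRCm38, the mm10 build) was almost silent in WT forebrain. The WT males 1E, 2D and 5D had 0 counts each and 7D had 1 count, while the WT females 3D, 4E and 5E had 0 counts each and 1D had 1 count. The Kdm5c-KO males 2E, 3E, 4D and 6D had 51, 39, 38 and 37 counts. The Kdm5c-HET females 6E, 8E, 9D and 9E had 12, 16, 15 and 4 counts. The mutant and WT counts did not overlap, but HET animal 9E lay close to the WT animals and to the low count of 3 that marks the floor of a single library, which corresponds to between 0.101 and 0.138 CPM here.

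In CPM, Otol1 stood at 1.616 ± 0.305 (SD, n = 4) in Kdm5c-KO males and at 0.469 ± 0.210 (SD, n = 4) in Kdm5c-HET females. Because the WT groups held a single count each, its fold change cannot be placed closely. The summed counts of the males, 165 against 1, gave a ratio of 160.4 after scaling to library size, with an exact 95% counting interval from 28.4 to 6373. Those of the females, 47 against 1, gave a ratio of 50.2 with an interval from 8.58 to 2024. These intervals cover counting error only. The ratio between the mutants is better placed, since both have counts: Kdm5c-KO males had 3.39 times the Kdm5c-HET level, with an exact counting interval from 2.44 to 4.79. The lowest KO animal stood at 2.17 times the highest HET animal.

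Tnxb (ENSMUSG00000033327, chromosome 17, positions 34660453 to 34719815) was expressed in all animals and rose the most of the 3 genes with a measurable WT level. WT males held it within a narrow band of 6.92, 7.10, 6.93 and 6.95 CPM. In Kdm5c-KO males it stood at 49.3, 44.8, 33.8 and 27.6 CPM for the animals 2E, 3E, 4D and 6D. WT females had 7.28, 9.14, 8.67 and 8.28 CPM, and the Kdm5c-HET females 6E, 8E, 9D and 9E had 18.4, 18.6, 22.2 and 14.2 CPM. Neither mutant group touched its WT group, as the lowest KO male had 3.89 times the highest WT male and the lowest HET female had 1.55 times the highest WT female.

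The mean of Tnxb was 5.57 times higher in Kdm5c-KO males than in WT males (log2 fold change 2.48, SE 0.156) and 2.2 times higher in Kdm5c-HET females than in WT females (log2 fold change 1.14, SE 0.154). Its spread differed greatly between groups. The coefficient of variation was 25.6% in Kdm5c-KO males, where counting error alone gives 3.16%, and 17.8% in Kdm5c-HET females against 4.68% from counting. In WT males it was 1.23% with 7.58% from counting, so those 4 animals agree more closely than their counts can resolve. The span of Tnxb overlaps 2 other RefSeq entries. The small nuclear RNA Gm24389 lies inside it, and the pseudogene Cyp21a2-ps overlaps it in part. How reads in shared stretches were assigned is not given in the sources used here.

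Cilp2 (ENSMUSG00000044006, chromosome 8, positions 69880366 to 69887392) rose by a similar amount in every Kdm5c-KO male. WT males had 19.5, 17.2, 17.7 and 18.0 CPM and Kdm5c-KO males 42.2, 42.5, 38.9 and 39.6 CPM. WT females had 17.4, 18.7, 16.7 and 17.9 CPM and Kdm5c-HET females 25.6, 20.7, 25.4 and 23.0 CPM. The lowest KO male had 1.99 times the highest WT male, while in the females the margin was smaller, at 1.11 times.

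The mean of Cilp2 was 2.25 times higher in Kdm5c-KO males (log2 fold change 1.17, SE 0.0693) and 1.34 times higher in Kdm5c-HET females (log2 fold change 0.42, SE 0.0702). Its coefficient of variation among KO males was 4.52%, and among HET females it was 9.84%. The span of Cilp2 overlaps the long noncoding RNA Gm33746.

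Cpxm1 (ENSMUSG00000027408, chromosome 2, positions 130390775 to 130397629) had the smallest rise. WT males had 22.1, 19.0, 19.2 and 20.3 CPM and Kdm5c-KO males 26.4, 24.9, 25.1 and 24.7 CPM. WT females had 18.3, 18.8, 18.8 and 17.7 CPM and Kdm5c-HET females 22.9, 22.1, 23.6 and 20.9 CPM. The groups were still apart, with the lowest mutant at 1.12 times the highest WT animal in males and 1.11 times in females.

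The mean of Cpxm1 was 1.26 times higher in Kdm5c-KO males (log2 fold change 0.33, SE 0.0611) and 1.22 times higher in Kdm5c-HET females (log2 fold change 0.28, SE 0.0616). Its animals varied by 3.01% in the KO group and 5.18% in the HET group, close to the 3.93% and 4.24% that counting error gives. No other RefSeq gene overlaps Cpxm1 or Otol1. In bulk tissue a change in the number of cells that make these mRNAs and a change in the mRNA per cell cannot be told apart.

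The animals did not keep 1 order across the 4 genes. Kdm5c-KO male 2E had the highest level of Otol1, Tnxb and Cpxm1 and the second highest of Cilp2. For Tnxb, 2E stood at 7.07 times the WT male mean and 6D at 3.96 times, while for Cilp2 the KO males spanned only 2.15 to 2.35 times the WT male mean. Among Kdm5c-HET females, 9E was the lowest for Otol1, Tnxb and Cpxm1 but only the third for Cilp2. Female 9D was the highest for Tnxb and Cpxm1, and 8E was the highest for Otol1 and the lowest for Cilp2.

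**Figure D2:**
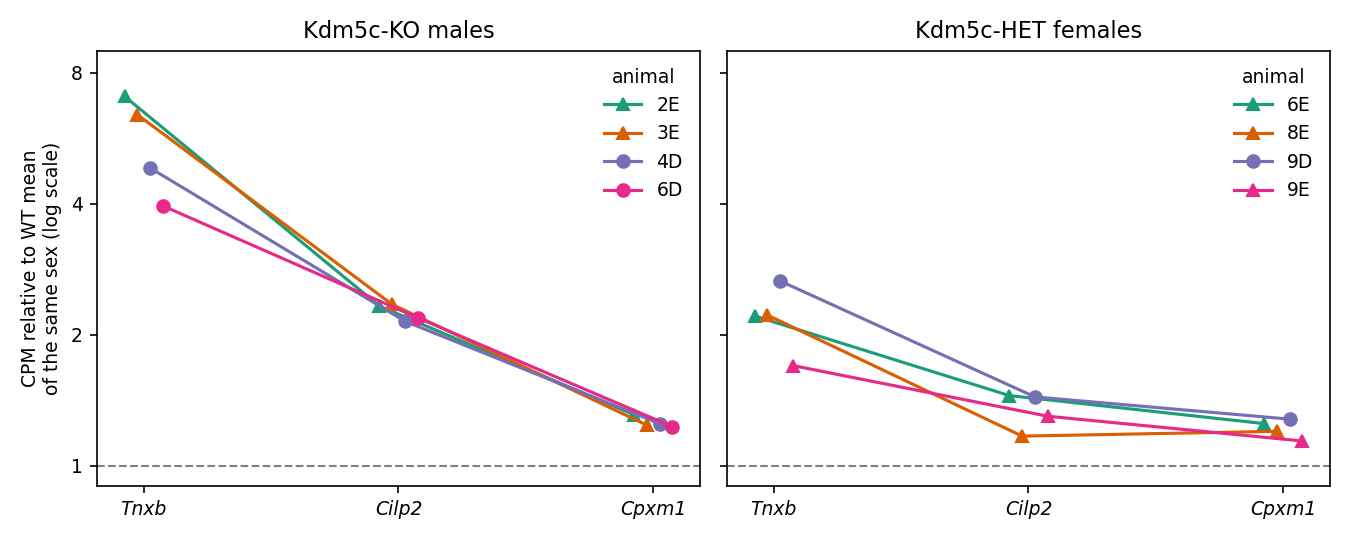
Fold of each mutant animal over the mean of the WT animals of its sex, for Tnxb, Cilp2 and Cpxm1, on a logarithmic axis, with 1 line per animal and a dashed line at the WT mean. The KO males spread from 3.96 to 7.07 times WT for Tnxb and from 2.15 to 2.35 times for Cilp2, and the HET lines cross between genes.

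The sample labels carry a letter, D or E, whose meaning they do not give. As every mutant lay above every WT animal of its sex for these genes, the same holds within each letter by necessity. It is no check of the letter, and the folds within letters are a description. For Tnxb the mean rose 4.39 times within letter D and 6.8 times within letter E in males, the latter against a single WT male, and 2.7 times within D (a single HET female) and 2.01 times within E in females. The same folds for Cilp2 were 2.22 and 2.17 in males and 1.41 and 1.33 in females, and for Cpxm1 they were 1.28 and 1.16 in males and 1.27 and 1.2 in females.

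The gain of the Kdm5c-HET females was set against that of the Kdm5c-KO males, to see how far partial loss went towards the level of complete loss. Tnxb gained 31.9 CPM in Kdm5c-KO males and 10 CPM in Kdm5c-HET females, so the female gain was 31.4% of the male gain (jackknife SE 7.21 percentage points). Otol1 gained 1.61 and 0.461 CPM, which is 28.7% (SE 7.16). Cilp2 gained 22.7 and 6.0 CPM, which is 26.5% (SE 5.57). These 3 genes thus lay within a few points of each other, less than their errors. Cpxm1 had gains of 5.15 and 3.97 CPM, a female gain of 77.0% of the male one (SE 17). Since its male rise was small and a call in females was a condition of the choice, only a gene with a high female share could be chosen at that size, and nothing is read from this share.

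Leaving out 1 animal at a time moved the share between 27.4% (without 9D) and 35.7% (without 9E) for Tnxb, between 25.3% (without 8E) and 34.9% (without 9E) for Otol1, and between 23.6% (without 6E) and 30.9% (without 8E) for Cilp2. For Cpxm1 it ran from 68.4% (without the WT male 1E) to 86.5% (without 9E). On the log2 scale the male fold change exceeded the female one by 1.34 (SE 0.218) for Tnxb, by 0.75 (SE 0.0984) for Cilp2 and by 0.05 (SE 0.0867) for Cpxm1. The log2 fold change of the females was 46.0% of that of the males for Tnxb, 35.9% for Cilp2 and 85.1% for Cpxm1. On the CPM scale the shares of Tnxb and Cilp2 lay within their errors. Without the 6 animals that passed 1000 counts of Ttr, those shares were 37.1% and 37.3%, so no order of these 2 genes is read from them. The level in Kdm5c-KO males was 2.12 times that in Kdm5c-HET females for Tnxb, 1.72 times for Cilp2 and 1.13 times for Cpxm1, and no KO male overlapped a HET female for any of the 4 genes. The share of all tested genes with these 2 groups apart is not given here, so this separation is not read as a result. For Cpxm1 the lowest KO male was only 1.05 times the highest HET female. Its WT males already lay above every WT female, with means of 20.1 and 18.4 CPM, while the WT sexes lay the other way for Tnxb. Complete loss was measured only in males and partial loss only in females, so the extent of the loss and sex cannot be told apart in this comparison.

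**Figure D3:**
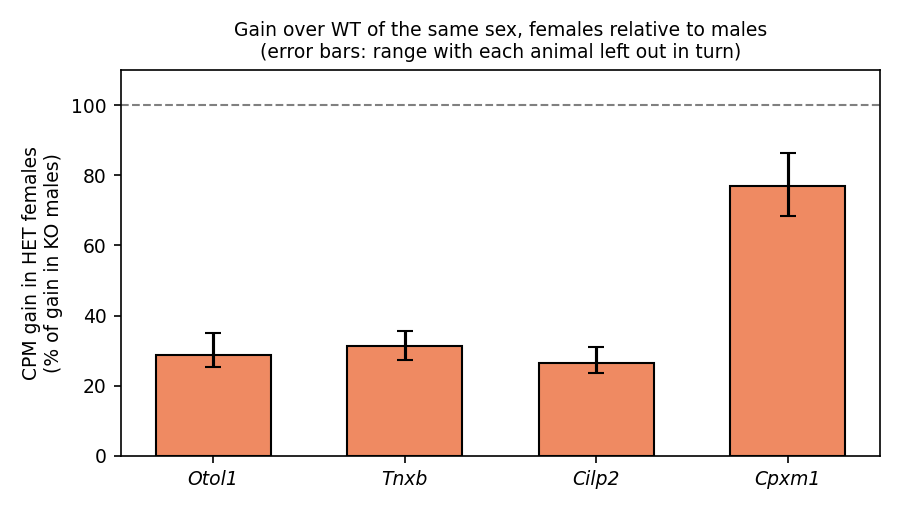
CPM gain of Kdm5c-HET females over WT females as a percent of the gain of Kdm5c-KO males over WT males, for the 4 genes, with error bars for the lowest and highest value when each animal is left out in turn and a dashed line where both gains would be equal. Otol1, Tnxb and Cilp2 lie between 26.5% and 31.4%, and Cpxm1 lies at 77.0%.

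The WT animals of the 2 sexes were compared because the genes were not chosen on that contrast, in which 463 of 17866 genes were called higher in females (2.59%) and 431 lower (2.41%). None of the 4 genes was called by edgeR's quasi-likelihood test, 0 had an unadjusted p under 0.05, and DESeq2 called 0. WT female Tnxb stood at 8.34 ± 0.792 CPM (SD, n = 4) and WT male Tnxb at 6.97 ± 0.0856 CPM (SD, n = 4). The lowest WT female was above the highest WT male, but the log2 difference of 0.26 (SE 0.165) had an adjusted p of 0.434 in edgeR (unadjusted p 0.136). Cpxm1 was lower in every WT female than in any WT male, at 18.4 ± 0.504 against 20.1 ± 1.42 CPM (SD, n = 4 each), with a log2 difference of -0.13 (SE 0.0619) and an adjusted p of 0.291 in edgeR (unadjusted p 0.0558). The 2 sexes overlapped for Cilp2, at 17.7 ± 0.814 against 18.1 ± 0.987 CPM (SD, n = 4 each), with a log2 difference of -0.03 (SE 0.0712) and an adjusted p of 0.858 in edgeR. For Otol1, with 1 count per WT group, a difference was not detectable at this depth.

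The genes whose levels over the 16 animals were most like those of the members were found by Pearson's r of log2 CPM, as a description in which the 4 groups set most of the likeness. For Otol1 they were Itprid1 (r = 0.984), Zfp783 (0.978) and Scarf2 (0.978), a scavenger receptor family gene. For Tnxb they included Srrm3 (0.976), a neuronal splicing regulator, and Zfp783 (0.974). For Cilp2 they were Tex14 (0.975), a gene of germ cell intercellular bridges, Nkpd1 (0.974) and ENSMUSG00000097134 (0.971), for which no symbol is paired here. For Cpxm1 they were Phyh (0.949), a peroxisomal enzyme, Pcbd1 (0.944), an enzyme of tetrahydrobiopterin recycling, and Tcfl5 (0.944), a testis transcription factor. Among the members, Otol1 and Tnxb were the most alike (r = 0.97) and Tnxb and Cpxm1 the least (0.899).

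Other matrix genes were read from lists of relatives and partners of the 4 proteins. Of 199 genes on these lists, 23 could be paired with an identifier and were tested. All 23 come from the study's own selection of changed genes in these animals. Their counts, p-values and kept calls are therefore a description and not independent evidence of a change or a direction. For the same reason the share of all tested genes called higher or lower in males (3.55% and 1.69%) is no fair measure for them, and the other 984 genes with a paired symbol are the nearer background: 54.5% of those were called higher in males and 29.2% lower, and 7.42% were called higher in females. In Kdm5c-KO males 18 of the 23 rose (78.3%), 3 fell and 2 were not called, with a median log2 fold change of 0.49, where the other 984 paired genes had 0.24 and all 17866 tested genes -0.00724. In Kdm5c-HET females 3 rose and 20 were not called, and 0 had a negative fold change at an unadjusted p under 0.05 in edgeR or DESeq2, with a median of 0.2, where the other paired genes had 0.06 and all tested genes -0.000803. With DESeq2 5 rose in females, 7 when low counts were not filtered, and 6 when the letter D or E entered the model. The counts also move with single animals: between 11 and 18 rose in males when 1 animal was left out, with the low value without WT male 5D or KO male 3E. Without the 6 animals with over 1000 counts of Ttr, which leaves 2 animals in 3 of the groups, 6 rose in males and 1 in females. Several genes that lost their call kept the direction of their log2 fold change in males. Among them were Col5a3 (1.03, from 0.82 with all animals), Col6a3 (-0.75, from -0.71) and Fap (0.70, from 0.77). Loxl1 (0.67, from 0.76) and C1qtnf2 (0.63, from 0.49) were others.

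The cartilage collagens Col9a2 and Col9a3 rose in both sexes. Col9a2, a chain of the type IX collagen that decorates cartilage fibrils, went from 16.1 to 31.8 CPM in males (log2 fold change 0.98, SE 0.0821, edgeR adjusted p 1.7e-07) and from 13.9 to 23.3 CPM in females (0.75, SE 0.0834, adjusted p 6.06e-05). Col9a3, another chain of the same collagen, went from 34.9 to 56.9 CPM in males (0.70, SE 0.1, edgeR adjusted p 0.000189) and from 35.7 to 53.6 CPM in females (0.59, SE 0.1, adjusted p 0.0066). Both calls held in all 16 fits that left out 1 animal, in either sex. Both genes could be read only because the study lists them as changed in these animals. Their p-values and kept calls are therefore a description and no independent test. Without the 6 animals with over 1000 counts of Ttr, Col9a2 kept its female call (edgeR adjusted p 0.00525) and Col9a3 lost it (adjusted p 0.256, log2 fold change 0.59). The span of Col9a3 overlaps Tcfl5, and the counting of shared reads is not known.

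Of the C1q-domain relatives of Otol1, C1qtnf6 and C1qtnf2 were paired, and both rose in Kdm5c-KO males, where 54.5% of the other paired genes were called higher. C1qtnf6, a secreted protein with a collagen stalk, went from 21.1 to 35.0 CPM in males (log2 fold change 0.72, SE 0.0957, edgeR adjusted p 7.87e-05) and from 19.2 to 25.8 CPM in females (0.42, SE 0.0969, adjusted p 0.074). The female call was lost in 8 of 16 fits that left out 1 animal and without the animals high in Ttr (log2 fold change 0.56, edgeR adjusted p 0.243). C1qtnf2 rose by 0.49 (SE 0.122, edgeR adjusted p 0.0275) in males, and its female value of 0.40 did not pass (adjusted p 0.356). Without KO male 3E, 1 of the 2 was called in males.

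Cpxm2, the closest relative of Cpxm1, rose by 0.62 in Kdm5c-KO males (SE 0.122, edgeR adjusted p 0.00516) and had a log2 fold change of 0.35 in females (adjusted p 0.513). Tnr, the tenascin of perineuronal nets and the one other tenascin that could be read, had a log2 fold change of -0.16 in males (edgeR adjusted p 0.119) and -0.04 in females (adjusted p 0.979).

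Of 8 collagen chains read, 6 rose and 2 fell in Kdm5c-KO males, where 54.5% of the other paired genes were called higher and 29.2% lower. Leaving out 1 animal gave 4 to 6 that rose and 1 to 2 that fell, and without the animals high in Ttr 2 rose and 0 fell. Col5a3, a fibrillar chain, rose by 0.82 (SE 0.19, edgeR adjusted p 0.0183). Col6a3, a chain of the microfibrillar collagen VI, fell by 0.71 (SE 0.155, adjusted p 0.0116), and its female value was -0.14 (adjusted p 0.977). The basement membrane chains Col4a3 and Col4a4, head-to-head neighbours whose spans overlap, went opposite ways at -0.88 (SE 0.271, adjusted p 0.0855) and 0.49 (adjusted p 0.0757). These 2 calls were kept in 6 and 12 of the 16 fits without 1 animal.

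The 4 proteases that could be read, each preselected as changed, rose in males (54.5% of the other paired genes did), and 2 rose without WT male 2D, WT male 5D or KO male 3E. Mmp11, or stromelysin-3, rose by 1.32 (SE 0.193, edgeR adjusted p 0.000259), and the serine protease gene Fap rose by 0.77 (SE 0.191, adjusted p 0.0279). Mmp2, a gelatinase, had 0.47 (adjusted p 0.0544). In females, Mmp11 had 0.71 (adjusted p 0.203) and Fap 0.09 (adjusted p 0.993). Hapln3, a link protein that ties hyaluronan to proteoglycans, rose by 1.09 (SE 0.148, edgeR adjusted p 0.000106) in males and had 0.53 in females (adjusted p 0.257).

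Of 3 fibril organisers read, 1 rose and 1 fell in Kdm5c-KO males, where 54.5% of the other paired genes were called higher and 29.2% lower. Loxl1, a collagen and elastin crosslinking enzyme, rose by 0.76 (SE 0.158, edgeR adjusted p 0.0088), and Postn, a matricellular protein of collagenous tissue, fell by 0.62 (SE 0.157, adjusted p 0.0345). Fbln2, an elastic fibre protein, had 0.35 (adjusted p 0.132). The call of Postn was lost without WT male 2D, KO male 2E or KO male 3E, and 2 organisers rose without WT male 1E or KO male 6D. The 3 basement membrane genes Egfl6 (0.59), Lama4 (0.31) and Smoc1 (0.27) rose in males with adjusted p values of 0.0827, 0.0422 and 0.0545, where 54.5% of the other paired genes were called higher. These calls were kept in 7, 12 and 13 of 16 fits without 1 animal, and 0 of the 3 were called without WT male 5D or KO male 3E. The difference between the male and the female response was tested for each of the 23 genes. The adjusted p of this interaction in edgeR ran from 0.686 to 0.999, with 0 of 23 called by edgeR or DESeq2, while 9 genes had an unadjusted p under 0.05 in edgeR and 10 in DESeq2. The share of all tested genes is not given here for this interaction, and the 23 genes were preselected as changed. These counts are therefore not read as a result about the matrix genes. Of the 23 spans, 10 are overlapped by another RefSeq gene.

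**Figure D4:**
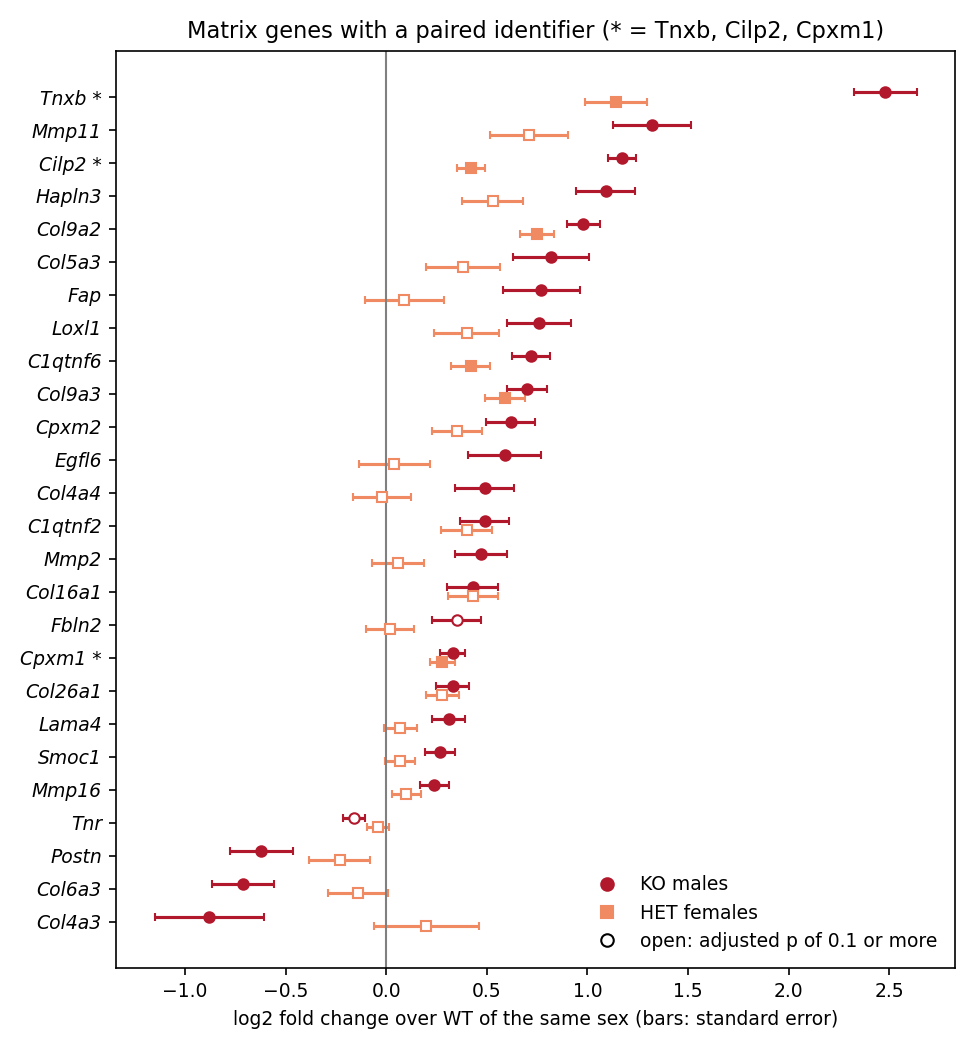
Log2 fold change of the 23 other matrix genes against WT animals of the same sex, for Kdm5c-KO males and Kdm5c-HET females, and, starred, of Tnxb, Cilp2 and Cpxm1, with bars for the SE and filled points for an adjusted p under 0.1. Of the genes without a star, 18 filled points lie above 0 and 3 below in males, and 3 lie above 0 in females.

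Genes beside the members were looked up, but only those in the study's selection of changed genes carry a symbol here, so these values do not show whether a stretch of chromosome moved as a whole. Of 27 neighbouring or overlapping RefSeq genes, 2 could be paired and tested, both next to Cilp2. Yjefn3 lies 396 bp away and rose by 0.38 on the log2 scale in Kdm5c-KO males (edgeR adjusted p 0.0358), with 0.06 in females (adjusted p 0.992). Ndufa13, a gene of mitochondrial complex I, lies 6771 bp away and fell by 0.21 in males (edgeR adjusted p 0.0775), with -0.03 in females (adjusted p 0.993). The neighbours of the other members were not analysed here.

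Markers of other cell types that the dissection could hold were read beside these results. None of the 14 markers of meningeal fibroblasts, 8 of endothelial cells, 7 of mural cells and 6 of microglia could be paired, so those cell types were not analysed here. Of 10 choroid plexus markers 3 could be read, again from the study's selection of changed genes, and Ttr, the transthyretin gene, led them. The summed CPM of Ttr, Aqp1 and Slc4a5 ran from 2.17 to 207 in WT males, 2.67 to 3.56 in Kdm5c-KO males, 5.29 to 196 in WT females and 4.13 to 87.6 in Kdm5c-HET females. In Kdm5c-KO males Ttr had a log2 fold change of -5.76 (edgeR adjusted p 0.0643), Aqp1 -2.0 (0.0642) and Slc4a5 -1.25 (0.0972). The WT males 2D and 5D were the highest for all 3 genes and had 201.1 and 201.5 CPM of Ttr. WT male 1E had 0.277 CPM, below the Kdm5c-KO males at 1.59 to 2.21 CPM, and WT male 7D had 5.60 CPM. For Slc4a5 the WT males 1E and 7D, at 0.692 and 0.717 CPM, lay within the range of the Kdm5c-KO males from 0.558 to 0.741 CPM. For Aqp1 the same 2 WT males, at 1.2 and 0.762 CPM, lay above the Kdm5c-KO males at 0.323 to 0.637 CPM. Aqp4, an astrocyte marker, ran from 149 to 167 CPM in WT males and from 120 to 145 CPM in Kdm5c-KO males.

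Without the 6 animals that passed 1000 counts of Ttr, the log2 fold change of Tnxb was 2.49 in males and 1.26 in females, and that of Cilp2 was 1.12 and 0.56. Cpxm1 had 0.26 and 0.34 and was no longer called in either sex, where 2 WT males, 2 WT females and 2 Kdm5c-HET females remained beside the 4 Kdm5c-KO males. The female gain in CPM was then 33.6% of the male gain for Otol1, 37.1% for Tnxb, 37.3% for Cilp2 and 121% for Cpxm1. The part of cell composition in the rise of the 4 genes was otherwise not tested.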

How the data were processed

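Forebrain mRNA-seq libraries of 16 mice were taken from the raw gene counts that the authors deposited, whole numbers per Ensembl gene and not normalized. Per the submitters' notes and the study's methods, directional poly(A) libraries were mapped to mm10 with STAR 2.5.3a, duplicates were removed, uniquely mapped reads were kept and featureCounts (Subread 1.5.0) counted them; its strand setting is not given in the sources used here. All 16 columns matched a sample. The table has no symbols: 1015 identifiers were paired with symbols from the study's lists of changed genes, whose fold changes and p-values were not used. Coordinates are RefSeq's for GRCm38.

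Counts were filtered (filterByExpr), TMM-scaled and fitted with edgeR 4.0.16 in R 4.3.3 (glmQLFit, glmQLFTest), with 1 mean per group over all 16 animals and Benjamini-Hochberg adjustment over all genes tested, at a threshold of 0.1. The fit was tested on simulated data. p-values treat the animals as independent, although per the study's methods they came from fewer litters than animals, and the labels do not tie animals to litters; a litter effect was not tested. Replicate names are not shared between groups, so samples were not paired. CPM are TMM-normalized, and log2 CPM used a prior count of 2. The jackknife left out 1 animal at a time. Alternatives were DESeq2 1.42.0, apeglm shrinkage, other scaling, filters, thresholds and samples.

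The members and lists were chosen with earlier results of these data known. Named genes are the members, list genes past the threshold (at most 3 per direction and list) with the 2 highest that did not pass, genes overlapping a member, and the 3 most correlated genes per member. Col4a4 was named after its values were seen, beside Col4a3; the choroid plexus and astrocyte genes come from the marker lists. Some genes that these rules name are not reported here.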

Additional observations from a re-analysis of the deposited data

Results flagged for a closer look

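In 7 of 108 sets of 4 animals (1 gene in 1 group), 1 animal passed Dixon's limit for distance from the other three, relative to the range of its group; chance gives about 1 in 20 sets. For Otol1, WT male 7D stood at 0.0448 CPM and WT female 1D at 0.0335 CPM, each a single count, while the others of their groups had none; with 3 zeros the ratio is at its maximum whatever the count. For Tnxb, WT male 2D had 7.1 CPM with the others between 6.92 and 6.95 CPM, a spread below the counting error. C1qtnf2 was lowest in WT male 7D, at 6.28 CPM with the others between 8.63 and 8.96 CPM. C1qtnf6 was highest in Kdm5c-KO male 6D, at 40.7 CPM with the others between 32.2 and 33.7 CPM. In WT female 5E, Col26a1 was lowest at 23.6 CPM (the others between 29.9 and 30.7 CPM) and Mmp16 was highest at 62.7 CPM (the others between 53.8 and 54.4 CPM).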

How the results depend on the processing

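The genotype fold changes of the 4 genes were chosen to be positive, so their sign across settings is no sign of stability. For Otol1 the fitted female value was 0.00 when shrunk with apeglm, and the uncalled difference between the WT sexes ran from -2.44 to 1.55 on the log2 scale, on both sides of 0. Leaving out 1 animal gave log2 fold changes of 2.34 to 2.61 (males) and 1.03 to 1.24 (females) for Tnxb, 1.15 to 1.21 and 0.38 to 0.48 for Cilp2, and 0.30 to 0.38 and 0.25 to 0.31 for Cpxm1. In females Cpxm1 lost its call without any of the 4 WT females or without HET 6E, 8E or 9D, and with no filter on low counts. With only animals of 1 sex in the fit, 2 of the 4 genes were called in females; Otol1 failed the filter there and Cpxm1 lost its call. Otol1 could not be tested with at least 10 counts in every animal. Between the WT sexes 0 of the 4 genes were called under all 23 alternatives.

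Without the 6 animals with over 1000 Ttr counts, an alternative added after seeing the data, the male minus female log2 fold change was -0.09 for Cpxm1 and -0.86 for Otol1, both turned, and 0.57 for Cilp2; Cilp2 was 0.56 in females and Cpxm1 0.26 in males; the female gain was 37.3% for Cilp2 and 121.0% for Cpxm1; of the other 23 matrix genes 6 rose and 0 fell in males and 1 rose in females. The number that rose in males ran from 11 to 18 and that fell from 1 to 3 when 1 animal was left out, and 1 fell with only males fitted. At an adjusted p under 0.05, 12 rose and 2 fell in males. In females 5 rose with DESeq2, 7 with no filter, 6 with the label letter as covariate and 2 to 3 without 1 animal. The causes were not tested. Depth limits Otol1, whose fold over WT rests on 1 count per WT group.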
